A study of Arabidopsis thaliana with 47 samples.

Results

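The 10 genes described here encode histone acetyltransferases of Arabidopsis thaliana. They are the GNAT family genes HAG1 (also GCN5, AT3G54610), HAG2 (AT5G56740) and HAG3 (also ELP3, AT5G50320), the MYST family genes HAM1 (AT5G64610) and HAM2 (AT5G09740), the CBP family genes HAC1 (AT1G79000), HAC5 (AT3G12980) and HAC12 (AT1G16710), and the TAFII250 family genes HAF1 (AT1G32750) and HAF2 (AT3G19040). The members were chosen by locus number, not by any measured value, and all 10 were found among the 28197 loci counted. Each locus was represented by its lowest-numbered splice variant. In the files 7 members had 1 variant, and HAM2, HAC1 and HAC12 had a pair.

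The study followed protoplasts, that is, leaf cells freed of their walls by enzymes, from isolation to callus. All plants were of the accession Columbia-0, with no transgene or mutation named, and protoplasts came from rosette leaves of 23-day-old plants. The 47 RNA-seq libraries fell into 12 groups, distinguished here also by the replicate numbers in the labels. Replicates 1 to 3 covered intact leaf, Day 0 protoplasts, the Day 14 control and Day 14 with MB-3. Replicates 4 to 8 covered Day 0 (n = 5), the control at Days 2, 4 and 6, and yucasin and MB-3 at Days 4 and 6 (n = 3 each). Replicates 9 to 11 covered Day 0, the Day 4 control and Day 4 without 2,4-D (n = 3 each). Control, yucasin and MB-3 cultures shared a medium with 1 mg/L of the synthetic auxin 2,4-D and 176 µg/L of thidiazuron, a compound with cytokinin activity. Cultures without 2,4-D had the same 176 µg/L of thidiazuron. Cultures were kept in alginate gel in the dark. Yucasin inhibits YUCCA enzymes, which make auxin. The study describes MB-3 as an inhibitor of the GNAT and MYST histone acetyltransferases, the families of the HAG and HAM genes. It adds that the specificity of such inhibitors in plants is not well established. Whole cultures were harvested, so each library mixed cells that had divided with cells that had not. The study describes the libraries of a time point as biological replicates, and the sources do not say whether libraries with the same number share a protoplast isolation.

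Histone acetyltransferases move an acetyl group from acetyl-CoA to lysines of histones, which loosens chromatin and offers binding sites to proteins with bromodomains. HAG1 is the catalytic subunit of the SAGA coactivator complex. HAG2 is the counterpart of yeast HAT1, a type B enzyme that acetylates newly made histones. HAG3 is the catalytic subunit of Elongator, known for modifying transfer RNA as well as for its link to histone acetylation. HAM1 and HAM2 act redundantly in a NuA4-like complex on histone H4. The HAC proteins resemble the animal coactivators p300 and CBP, and the HAF proteins resemble the largest subunit of the general transcription factor TFIID.

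Reads from such families can be shared between close copies, so the longest run of coding sequence that each of the most alike pairs has in common is shown, with the shared run in capitals and 10 flanking bases in lower case (coding strand, RefSeq, build TAIR10.1). HAM1 and HAM2 lie on chromosome 5, HAC1 and HAC12 on chromosome 1, HAF1 on chromosome 1 and HAF2 on chromosome 3.
HAM1: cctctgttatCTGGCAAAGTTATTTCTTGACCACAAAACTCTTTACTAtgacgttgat
HAM2: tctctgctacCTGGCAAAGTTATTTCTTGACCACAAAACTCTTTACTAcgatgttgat
HAC1: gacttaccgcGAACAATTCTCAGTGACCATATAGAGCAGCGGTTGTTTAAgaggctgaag
HAC12: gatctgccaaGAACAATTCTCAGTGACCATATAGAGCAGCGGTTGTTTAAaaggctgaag
HAF1: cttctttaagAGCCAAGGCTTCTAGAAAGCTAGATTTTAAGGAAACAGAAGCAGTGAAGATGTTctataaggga
HAF2: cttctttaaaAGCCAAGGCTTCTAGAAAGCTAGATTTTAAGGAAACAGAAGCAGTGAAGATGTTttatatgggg
The shared runs were 38 bases long in the HAM pair, 40 in HAC1 and HAC12 and 54 in the HAF pair, and the aligned coding sequences were 84.6%, 82.2% and 84.7% identical. HAC5 shared at most 24 bases with either of the other HAC members, and the HAG genes at most 14 with each other. Windows of 50 bases were shared only by the HAF pair, and these were 0.0876% of HAF1 windows and 0.0941% of HAF2 windows. A read lying wholly inside such a run, of at most 38, 40 or 54 bases for these pairs, could belong to either copy. The read length is not given in the sources used here. Summed counts came to 101.9% to 104.7% of the mapped reads stated in the files, so some reads were counted at more than 1 locus.

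Libraries held 4.34 to 19.1 M mapped reads (median 8.46 M), and 3 counts corresponded to 0.152 to 0.667 CPM (the count per 1000000 of the library) depending on the library. CPM were scaled by TMM, which sets libraries against each other by the bulk of their genes, as the study did; per-length levels are CPM divided by transcript length in kb. The 5 mesophyll markers were all detected in every group and summed to 14384 to 39344 CPM in leaf, 1392 to 5679 at Day 0 and 155 to 191 in the Day 14 control. Summed epidermis markers stood at 163 to 223 CPM in leaf against 0.365 to 2.43 at Day 0, phloem markers at 693 to 809 against 3.86 to 9.64, and xylem markers at 15.4 to 28.6 against 0 to 1.52, so leaf held cell types whose markers were near the detection limit, or far lower, in the protoplasts. In bulk samples fewer cells of a type and less RNA per cell cannot be told apart. In replicates 1 to 3, loci without a read in every library of replicates 4 to 11 had reads at 31.3% to 79.0% of these loci in leaf, at 29.4% in Day 0 replicate 3, and at 45.05% and 83.6% in Day 14 control replicates 1 and 3, against 0.691% to 9.26% in the other libraries.

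HAG1 and HAG2, low in freshly isolated protoplasts, rose several fold during culture, while HAC1, HAC5 and HAF1, high at Day 0, fell. HAG1 stood at 4.35, 5.74, 5.97, 5.48 and 5.55 CPM in Day 0 replicates 4 to 8, and at 15.9, 12.9 and 17.0 CPM on Day 2. It stood at 19.1, 18.4 and 24.9 CPM in the Day 4 control and 27.1, 24.7 and 23.7 CPM in the Day 6 control. No cultured library overlapped the Day 0 range. HAG1 was 4.58-fold higher on Day 6 than on Day 0 (log2 2.20, SE 0.13, edgeR adjusted p = 1.03e-13), and was already higher on Day 2 (log2 1.49, SE 0.14, adjusted p = 6.87e-10).

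HAG2 stood at 3.86, 3.47, 5.97, 4.75 and 4.38 CPM at Day 0, at 19.4, 19.5 and 18.7 CPM on Day 2, at 22.4, 20.7 and 22.3 CPM on Day 4 and at 28.3, 26.3 and 28.9 CPM on Day 6. The groups of Days 0, 2, 4 and 6 did not overlap. The change from Day 0 to Day 6 was 6.16-fold (log2 2.62, SE 0.13, edgeR adjusted p = 3.12e-15). From Day 4 to Day 6 HAG2 was higher by log2 0.35 (SE 0.12, adjusted p = 0.0343), a call that was lost without any 1 of replicates 4 to 8 (adjusted p = 0.0501 to 0.123). It was the only member called in that step, where 31.9% of all loci were called, and without replicate 6 HAG1 (log2 0.42, adjusted p = 0.0325) and HAC5 (log2 -0.45, adjusted p = 0.0290) were called instead.

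HAG3 behaved differently from the other GNAT genes, and its direction depended on the scaling. It stood at 28.5, 49.9, 51.5, 44.5 and 48.0 CPM at Day 0, 42.1, 46.2 and 31.2 CPM on Day 2, 26.7, 26.0 and 24.5 CPM on Day 4 and 26.4, 26.3 and 25.8 CPM on Day 6. Day 0 replicate 4 was the low library of its group and lay near the later values. HAG3 fell by log2 0.77 (SE 0.15, edgeR adjusted p = 5.10e-05) from Day 0 to Day 6 under TMM, whereas scaling to total counts gave a rise of log2 0.34 (adjusted p = 0.0262). Between Days 2 and 4 it fell by log2 0.62 under TMM (SE 0.17, adjusted p = 0.00249).

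Of the MYST genes, HAM1 stayed within 19.7 to 27.4 CPM over all control libraries and Day 0 of replicates 4 to 8. Its difference between Day 6 and Day 0 was log2 0.19 (SE 0.10, edgeR adjusted p = 0.0961), DESeq2 called the same difference at 0.24 (adjusted p = 0.0330), and under total-count scaling HAM1 was higher by 1.30 (adjusted p = 4.26e-11). HAM2 stood at 8.94, 8.68, 7.61, 9.38 and 5.11 CPM at Day 0, 11.5, 11.4 and 13.3 CPM on Day 4 and 14.6, 14.3 and 12.6 CPM on Day 6. Every Day 4 and Day 6 library lay above the Day 0 range. HAM2 rose by log2 0.80 from Day 0 to Day 6 (SE 0.15, edgeR adjusted p = 2.83e-05), and by log2 1.92 under total-count scaling.

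Among the CBP genes, HAC1 stood at 241, 208, 229, 212 and 200.2 CPM at Day 0 and at 189, 268 and 124 CPM on Day 2, with the lowest value in replicate 6. It reached 74.4, 79.8 and 70.6 CPM on Day 4 and 64.3, 61.7 and 54.5 CPM on Day 6. Day 2 overlapped Day 0, while Days 4 and 6 lay below both. The fall from Day 0 to Day 6 was log2 -1.86 (SE 0.17, edgeR adjusted p = 2.26e-10), and log2 -0.74 under total-count scaling (adjusted p = 2.92e-05).

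HAC5 took the same course, from 138, 117, 131, 124 and 134 CPM at Day 0 and 122, 156 and 62.9 CPM on Day 2 to 40.0, 40.2 and 35.0 CPM on Day 4 and 29.1, 31.6 and 24.8 CPM on Day 6. Replicate 6 was again the low library on Day 2. HAC5 was 4.52-fold lower on Day 6 than on Day 0 (log2 -2.18, SE 0.18, edgeR adjusted p = 5.97e-11), which remained log2 -1.06 under total-count scaling (adjusted p = 6.40e-07). HAC12 went from 64.2, 74.6, 78.7, 73.1 and 70.7 CPM at Day 0 to 53.0, 49.99 and 45.6 CPM on Day 2, 31.7, 30.2 and 35.6 CPM on Day 4 and 35.2, 35.1 and 28.4 CPM on Day 6. Its fall of log2 1.14 to Day 6 under TMM (SE 0.11, edgeR adjusted p = 5.88e-10) was not called under total-count scaling (log2 -0.02, adjusted p = 0.853).

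HAF1, the most abundant member per length at Day 0, stood at 259, 247, 263, 237 and 251 CPM there and at 176, 230 and 113 CPM on Day 2, again lowest in replicate 6. It stood at 82.0, 84.9 and 73.0 CPM on Day 4 and 80.0, 72.6 and 71.2 CPM on Day 6. The 3 later groups lay wholly below Day 0. The difference between Day 6 and Day 0 was log2 -1.75 (SE 0.17, edgeR adjusted p = 9.67e-10), and log2 -0.64 under total-count scaling (adjusted p = 0.000244).

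HAF2 was at or near the detection limit. Of 44 protoplast libraries 30 had at most 3 counts and 10 had 0, and the highest count in the 35 libraries of replicates 4 to 11 was 10. In leaf HAF2 had 13, 35 and 27 counts. Its other counts above 10 were 11 in Day 0 replicate 3 and 15 and 57 in Day 14 control replicates 1 and 3, the same libraries that had reads at otherwise silent loci; the part of those reads in its counts was not tested. HAF2 was filtered from the fits of replicates 4 to 11, so 9 members were tested there.

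**Figure D1:**
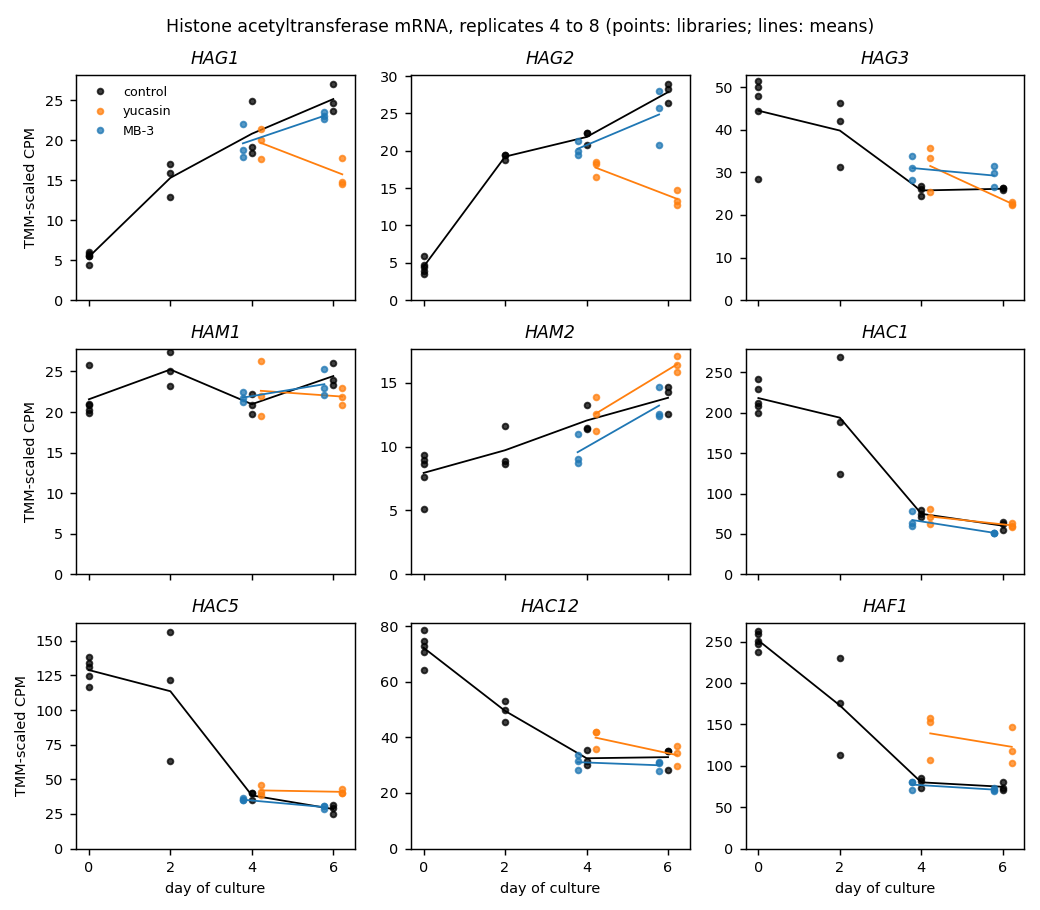
Level of 9 members over days of culture in replicates 4 to 8, in CPM scaled by TMM, 1 panel per gene with its own axis from 0. Points are libraries and lines join group means of control, yucasin and MB-3 cultures. HAG1, HAG2 and HAM2 rose and HAC1, HAC5 and HAF1 fell from Day 0 to Day 6 in the control under both scalings, whereas HAG3 turned to a rise of log2 0.34 and HAC12 was near 0 (log2 -0.02) under total-count scaling.

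Counted over the 9 members tested, 3 rose and 5 fell between Day 0 and the Day 6 control, where 86.2% of all loci were called, 48% higher and 38.1% lower. The same numbers held for Day 4 (84.9% of loci, 47.1% higher and 37.8% lower). On Day 2, 2 rose and 2 fell (76.1% of loci, 42.5% higher and 33.7% lower). Under total-count scaling the split was 5 higher and 3 lower on Day 6, 4 and 3 on Day 4, and 8 and 0 on Day 2. Without replicate 5, whose number is shared by libraries of several groups, HAC1 and HAC5 were also lower on Day 2 under TMM (log2 -0.49, adjusted p = 0.00630, and -0.52, adjusted p = 0.0128), and without replicate 4, HAG3 was lower (-0.34, adjusted p = 0.0396) and HAM1 higher (0.29, adjusted p = 0.0262). A share of members near these backgrounds does not set them apart. The median log2 change of the members was -0.77 on Day 6 against 0.34 over all loci. Between Days 2 and 4, HAG1 rose and HAG3, HAC1, HAC5, HAC12 and HAF1 fell (60% of loci called, 29.1% higher and 30.9% lower), by log2 1.37 for HAC1, 1.56 for HAC5 and 1.11 for HAF1, and total-count scaling gave 3 higher and 5 lower. Under the study's stricter rule (more than 4-fold, p and adjusted p under 0.01), HAG1, HAG2 and HAC5 were called on Day 6, where 43.8% of loci were. All comparisons with Day 0 in replicates 4 to 8 used the same 5 Day 0 libraries. Mesophyll markers summed to 1757 to 5679 CPM in these, 870 to 1339 on Day 2, 451 to 494 on Day 4 and 388 to 583 on Day 6, and guard cell markers to 0.876 to 1.93, 9.18 to 15.8, 13.8 to 18.6 and 7.21 to 14.1 CPM. The part of such a change of cells or cell state in the members' changes was not tested.

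Scaling mattered because total-count scaling shifted the median of all loci up by log2 0.80 on Day 2, 0.98 on Day 4 and 1.11 on Day 6 relative to TMM. The fall of HAC1, HAC5 and HAF1 was seen on Days 4 and 6 under both scalings in replicates 4 to 8, but on Day 2 HAC1 and HAC5 were higher than at Day 0 by log2 0.59 and 0.58 under total-count scaling, and HAF1 was not called (log2 0.23, adjusted p = 0.146). These genes also have long transcripts, 6214 bases for HAC1, 5701 for HAC5, 6018 for HAC12, 6190 for HAF1 and 5435 for HAF2, against 1599 to 2406 for the rest. The 251 tested loci of at least 5000 bases had a median log2 change of -0.58 on Day 6 and -0.41 on Day 4, and loci under 2500 bases 0.40 and 0.36. The part of transcript length in the falls was not tested.

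**Figure D2:**
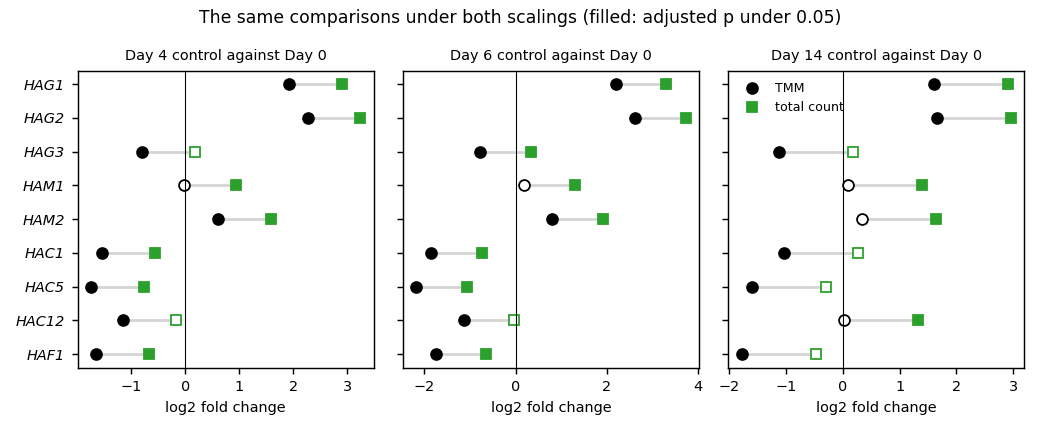
Log2 difference of 9 members from Day 0 under TMM (black circles) and under total-count scaling (green squares). Panels show the control on Days 4 and 6 (replicates 4 to 8) and Day 14 (replicates 1 to 3). Genes are rows, both scalings share the horizontal axis, and a grey line joins the points of a gene. Points are filled where the edgeR adjusted p was under 0.05. HAG1 and HAG2 lie above 0 under both scalings in each panel, and HAG3 changes side. HAC1, HAC5 and HAF1 lie below 0 under both scalings on Days 4 and 6, while HAC1 changes side on Day 14.

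A share within the 10 genes does not depend on the scaling. HAG1 and HAG2 together made up 3.28% ± 0.407 (SD, n = 5) of the summed per-length level at Day 0, 12.9% ± 3.54 (n = 3) on Day 2, 24.2% ± 1.91 (n = 3) on Day 4 and 28.9% ± 0.975 (n = 3) on Day 6. HAC1, HAC5 and HAF1 together made up 64.8% ± 2.30 (n = 5), 54.1% ± 8.44, 35.4% ± 2.84 and 28.6% ± 1.22 (n = 3 each) at the same times. The pair HAG1 and HAG2 thus went from the smallest contributors except HAF2 to a share like that of HAC1, HAC5 and HAF1 summed. In leaf the pair took 10.9% ± 1.18 (n = 3) and the trio 45.5% ± 2.75 (n = 3), and on Day 14 the pair took 19.6% ± 1.12 and the trio 38.1% ± 0.717 (n = 3 each). In Day 0 replicates 1 to 3 and 9 to 11 the pair took 3.75% ± 1.31 and 3.72% ± 0.453 (n = 3 each), close to the value in replicates 4 to 8.

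**Figure D3:**
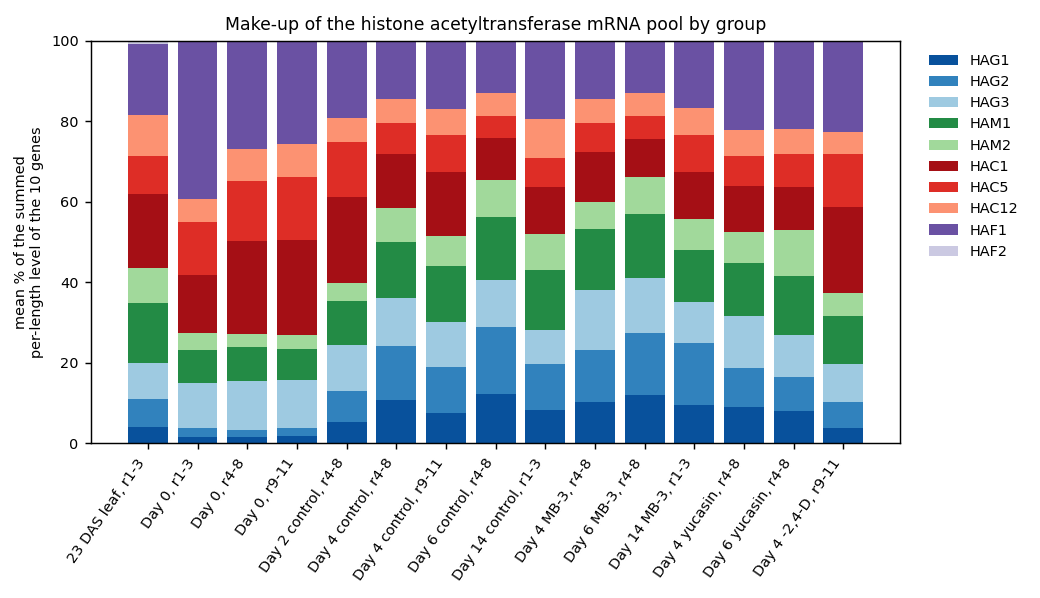
Mean share of each gene in the summed per-length level (CPM per kb) of the 10 genes, in percent, as stacked bars by group within each set of replicate numbers. HAG1 and HAG2 grow from 3.28% at Day 0 to 28.9% in the Day 6 control of replicates 4 to 8, and take 16.4% with yucasin on Day 6.

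By level per length, the order at Day 0 of replicates 4 to 8 was HAF1 (mean 40.6 CPM per kb), HAC1 (35.1), HAC5 (22.6), HAG3 (18.5), HAM1 (12.9), HAC12 (12.0), HAM2 (4.97), HAG1 (2.49), HAG2 (2.48) and HAF2 (0.0138). The ranges of neighbours overlapped for HAF1 and HAC1, for HAC5 and HAG3, for HAG3 and HAM1, for HAM1 and HAC12, and for HAG1 and HAG2. In the Day 6 control HAG2 (15.4 CPM per kb) and HAM1 (14.6) came first with overlapping ranges, followed by HAF1 (12.1), HAG1 (11.6), HAG3 (10.9), HAC1 (9.69), HAM2 (8.65), HAC12 (5.47), HAC5 (5.00) and HAF2 (0.0318). Ranges there also overlapped for HAF1 and HAG1, for HAG1 and HAG3, for HAC1 and HAM2, and for HAC12 and HAC5. In leaf HAC1 (16.4 CPM per kb) and HAF1 (15.6) led with overlapping ranges, and HAG1 (3.73) stood above HAF2 (0.710) only.

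The change from Day 0 to the Day 4 control was measured again in replicates 9 to 11. HAG1 went from 6.47, 4.63 and 4.01 CPM to 19.3, 12.9 and 12.3 CPM, and HAG2 from 4.41, 4.75 and 4.54 CPM to 18.9, 18.3 and 18.5 CPM. HAG2 rose by log2 2.02 (SE 0.20, edgeR adjusted p = 1.36e-05) and HAG1 by log2 1.56 (SE 0.28, adjusted p = 0.000483). Both rose under total-count scaling as well (log2 3.08 and 2.62). The same 3 members rose and the same 5 fell under TMM as in replicates 4 to 8. Of all loci 73.3% were called, 41.6% higher and 31.7% lower. Total-count scaling called 4 members higher and 0 lower, with a median of log2 1.38 over all loci. Of these falls, HAC1 at log2 -1.05 under TMM stood at log2 0.01 under total-count scaling, HAF1 at -1.09 stood at -0.04, HAC5 at -1.26 stood at -0.20, and HAC12 at -0.90 and HAG3 at -0.62 turned to 0.16 and 0.44, none of the 5 called there.

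In these Day 4 cultures replicate 9 differed from the others, with HAC1 at 64.1 CPM against 109 and 106 CPM, HAF1 at 64.4 against 118 and 109, and HAG1 at 19.3 against 12.9 and 12.3. The calls of HAG3, HAM2, HAC1, HAC5 and HAF1 were lost when replicate 11 was left out (adjusted p = 0.0547 to 0.0893), and all of these but HAC5 also without replicate 10 (adjusted p = 0.0509 to 0.179), with log2 values between -1.30 and 0.71. Without replicate 9 HAM1 was called in addition (log2 0.57, adjusted p = 0.0160). The difference between the replicate sets in the change from Day 0 to Day 4 was called by edgeR for 0 members (0 at unadjusted p under 0.05, and 0 by DESeq2), where 0.114% of loci were called. Its member values lay between log2 -0.45 and 0.48.

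Isolation and the 14-day culture were compared in replicates 1 to 3. HAF1 stood at 96.6, 99.7 and 93.7 CPM in leaf and 289, 402 and 426 CPM at Day 0, without overlap. This was 3.85-fold higher at Day 0 (log2 1.95, SE 0.23, edgeR adjusted p = 7.60e-06) and was still called at log2 0.91 under total-count scaling. HAC5 was at 48.1, 62.9 and 34.3 CPM in leaf and 125, 93.5 and 125 CPM at Day 0, and HAG3 at 23.3, 19.0 and 16.8 against 46.4, 37.2 and 39.4 CPM. Both were called under TMM (log2 1.24, adjusted p = 0.00218, and log2 1.06, adjusted p = 0.000181), and under total-count scaling neither was (0.18 and 0.03).

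HAG2 was lower at Day 0, with 8.16, 5.89 and 3.33 CPM against 11.3, 11.0 and 10.6 CPM in leaf (log2 -0.90, SE 0.29, edgeR adjusted p = 0.0135). Total-count scaling gave log2 -1.92. The call was lost without replicate 2 (adjusted p = 0.0970) or replicate 3 (0.0855). In all, 3 members were higher and 1 lower at Day 0 of 10 tested, where 69.7% of loci were called, 28.8% higher and 40.9% lower. Total-count scaling called 1 higher (HAF1) and 6 lower, with HAG1 at log2 -1.60, HAM1 at -1.05, HAM2 at -1.30 and HAC12 at -1.11 beside HAG2 and HAC1. That scaling called 15461 of 20205 loci, and the median of all loci was log2 -1.59. HAG1 lay near this median, and HAM1, HAM2, HAC12 and HAC1 fell by less. HAC1 was not called under TMM (log2 0.42, adjusted p = 0.147), was called as higher without replicate 1 (log2 0.65, adjusted p = 0.0387) and was lower by total-count scaling (log2 -0.62, adjusted p = 0.0380). Leaf differed from protoplasts in cell types as given above, and the part of these in the differences was not tested.

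By Day 14 HAG1 stood at 16.0, 16.3 and 17.2 CPM and HAG2 at 20.8, 17.0 and 18.1 CPM, against 6.88, 4.82 and 4.55 CPM and the HAG2 values just given at Day 0. They rose by log2 1.60 (SE 0.31, edgeR adjusted p = 0.000488) and 1.66 (SE 0.28, adjusted p = 0.000156), and under total-count scaling by 2.91 and 2.96. HAF1 was at 130, 102 and 92.5 CPM on Day 14 and HAC5 at 29.5, 40.8 and 42.3 CPM, both below every Day 0 library. Under TMM HAF1, HAC5, HAG3 and HAC1 fell by log2 1.78, 1.60, 1.13 and 1.04, while under total-count scaling none was called and the values were -0.47, -0.29, 0.18 and 0.27. So 2 members rose and 4 fell, where 68.8% of loci were called, 36.8% higher and 32% lower. Total-count scaling called 5 higher and 0 lower, HAM1 (log2 1.39), HAM2 (1.64) and HAC12 (1.33) rising with HAG1 and HAG2. That scaling called 15277 of 20205 loci, and the median of all loci was log2 1.59. HAM2 lay near this median, HAM1 and HAC12 below it, and HAG1 and HAG2 above it. Without the 3 protoplast libraries that had reads at over 20% of silent loci, HAC1 stood at log2 -0.93 under TMM. The leaf libraries, also above 20%, were kept. That fit had 1 Day 14 control library left, assumed to vary like the other groups, so the size is given without a call.

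Against leaf, the Day 14 control had higher HAG1 (log2 1.01, SE 0.28, edgeR adjusted p = 0.00924) and HAG2 (log2 0.76, SE 0.25, adjusted p = 0.0230). Leaf HAG1 was uneven, with 12.9 CPM in replicate 1 and 5.77 and 5.64 CPM in the others. Both calls were lost without replicate 2 (log2 0.84 and 0.82, adjusted p = 0.117 and 0.1199) or without replicate 3 (log2 0.77 and 0.76, adjusted p = 0.112 and 0.0526). No other member was called, where 50.9% of loci were, though HAC1 was lower by DESeq2 (log2 -0.62, adjusted p = 0.0368) and without replicate 3 (-0.84, adjusted p = 0.0439), against an edgeR adjusted p of 0.0531 with all libraries. Comparisons among leaf, Day 0 and Day 14 share these libraries.

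With MB-3, an inhibitor of histone acetyltransferase enzymes, no member was called as changed in transcript level on Days 4, 6 or 14. On Day 4 HAG1 stood at 18.8, 18.0 and 22.0 CPM with MB-3 against 19.1, 18.4 and 24.9 CPM in the control, and on Day 6 at 22.7, 23.5 and 23.0 against 27.1, 24.7 and 23.7 CPM. HAG2 stood at 19.96, 19.5 and 21.3 CPM on Day 4 and 25.8, 20.8 and 28.0 CPM on Day 6 with MB-3. The HAG2 ranges overlapped the control on both days and the HAG1 ranges on Day 4, while on Day 6 every HAG1 value with MB-3 lay below the control. HAG1 differed by log2 -0.09 (SE 0.13, edgeR adjusted p = 0.782) on Day 4 and -0.12 (SE 0.13, adjusted p = 0.526) on Day 6.

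Over the 9 members, edgeR called 0 on Day 4 (7.19% of loci called) and 0 on Day 6 (27.4% of loci called), and DESeq2 called 0 on each day. At unadjusted p under 0.05 there was 1 member on Day 4 (HAM2, log2 -0.33, adjusted p = 0.239) and 0 on Day 6. Approximate 95% intervals of the 9 differences stayed between log2 -0.65 and 0.59 on Day 4 and between -0.57 and 0.49 on Day 6. These are the outermost bounds over the 9 members, not a limit of detection. A change within a member's own interval was not excluded. The effect of MB-3 on Day 6 minus that on Day 4 was called for 0 members by edgeR and DESeq2 (0 at unadjusted p under 0.05), where 4.09% of loci were called.

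On Day 14, HAG2 stood at 19.7, 26.9 and 32.5 CPM with MB-3 against 20.8, 17.0 and 18.1 CPM in the control, and HAG1 at 19.0, 19.3 and 20.1 against 16.0, 16.3 and 17.2 CPM. The HAG1 groups did not overlap, and the HAG2 groups did. The differences were log2 0.51 (SE 0.24, edgeR adjusted p = 0.149) for HAG2 and 0.23 (SE 0.27, adjusted p = 0.569) for HAG1. HAC5 was uneven with MB-3, at 74.4, 38.8 and 38.2 CPM, and HAC1 likewise at 96.0, 64.5 and 49.9 CPM, with replicate 1 the high library in each.

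Of the 10 members tested on Day 14, edgeR and DESeq2 called 0 (21.6% of loci called by edgeR), and 1 had an unadjusted p under 0.05, HAF2, whose counts follow the libraries with reads at silent loci. HAC12 at 48.1, 33.1 and 31.8 CPM with MB-3 against 43.3, 54.5 and 58.2 CPM was called only without replicate 1 (log2 -0.82, adjusted p = 0.0260, against log2 -0.47 with all). Intervals of the other 9 members lay between log2 -0.92 and 0.99, wider than on Days 4 and 6.

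**Figure D4:**
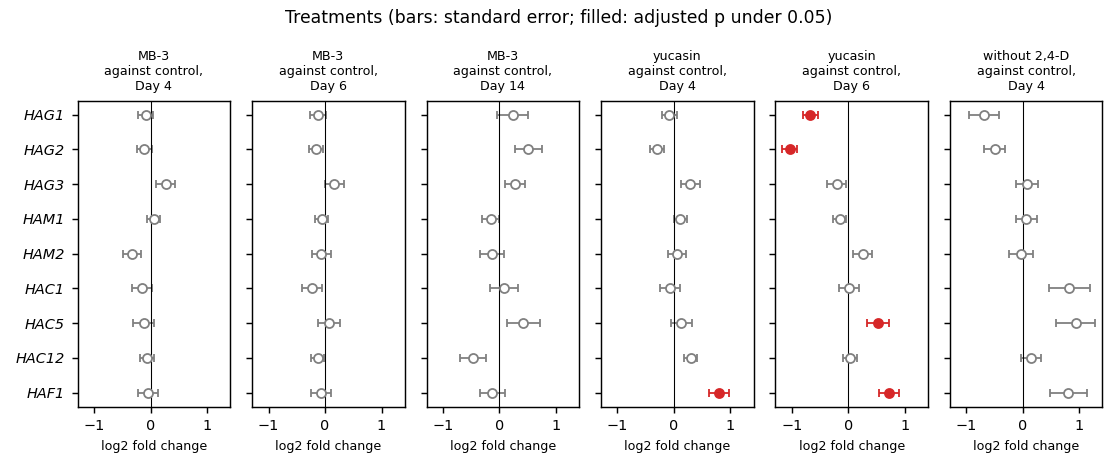
Log2 difference (TMM) from the same-day control for 9 members with yucasin, MB-3 or without 2,4-D, as points with bars of 1 SE, filled where the edgeR adjusted p was under 0.05. HAG1 and HAG2 lie at -0.67 and -1.04 with yucasin on Day 6, and no MB-3 point is filled. Under total-count scaling HAC5 and HAF1 with yucasin on Day 6 moved to 0.04 and 0.23 and were not called, and HAG3, HAM1, HAC1 and HAC12 were called lower. The median of all loci in that fit was log2 -0.48.

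With yucasin, HAG1 and HAG2 were lower on Day 6. HAG2 stood at 12.7, 13.3 and 14.7 CPM against 28.3, 26.3 and 28.9 CPM in the control, without overlap, a difference of log2 -1.04 (SE 0.13, edgeR adjusted p = 5.14e-07). HAG1 stood at 17.8, 14.6 and 14.8 CPM against 27.1, 24.7 and 23.7 CPM, also without overlap (log2 -0.67, SE 0.14, adjusted p = 0.000194). Both held under total-count scaling (log2 -1.52 and -1.16). The pair made up 16.4% ± 1.34 (SD, n = 3) of the summed per-length level of the 10 genes with yucasin on Day 6, against 28.9% ± 0.975 in the control.

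On Day 4 neither was called with yucasin. HAG1 stood at 17.6, 19.97 and 21.4 CPM (log2 -0.08, SE 0.13, edgeR adjusted p = 0.727) and HAG2 at 16.5, 18.2 and 18.5 CPM (log2 -0.30, SE 0.13, adjusted p = 0.0988), the latter called by DESeq2 at -0.33 (adjusted p = 0.0286). The effect on Day 6 minus that on Day 4 was log2 -0.74 for HAG2 (SE 0.18, adjusted p = 0.00544) and -0.60 for HAG1 (SE 0.19, adjusted p = 0.0263), the 2 members called of 9, where 24.2% of loci were. The HAG1 difference was not called when replicate 4, 5, 7 or 8 was left out (log2 -0.62 to -0.50, adjusted p = 0.0582 to 0.115).

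HAF1 was higher with yucasin on both days under TMM. It stood at 158, 152 and 107 CPM on Day 4 against 82.0, 84.9 and 73.0 CPM, and at 104, 147 and 117 CPM on Day 6 against 80.0, 72.6 and 71.2 CPM, without overlap on either day. The differences were log2 0.80 (SE 0.18, edgeR adjusted p = 0.00214) and 0.72 (SE 0.18, adjusted p = 0.00149), and total-count scaling reduced the Day 6 value to 0.23 (adjusted p = 0.200). The Day 4 call was lost without replicate 4 (adjusted p = 0.0631) and the Day 6 call without replicate 7 (0.0578). HAC5 on Day 6, at 39.8, 43.2 and 39.8 CPM against 29.1, 31.6 and 24.8 CPM, was called at log2 0.52 (SE 0.19, adjusted p = 0.0224), but not under total-count scaling (0.04), nor without replicate 7 (0.56, adjusted p = 0.0773) or 8 (0.45, adjusted p = 0.149).

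HAF1 was the only member called on Day 4, where 23.6% of loci were, and 2 members were higher and 2 lower on Day 6, where 58.9% of loci were, 30.1% higher and 28.8% lower. Total-count scaling called 0 higher and 6 lower on Day 6, adding HAG3 (log2 -0.69, adjusted p = 0.000620), HAM1 (-0.64, adjusted p = 9.01e-05), HAC1 and HAC12 (-0.45) to HAG1 and HAG2, and 1 higher and 1 lower on Day 4. On Day 6 that scaling called 12890 of 19043 loci. It put the median of all loci at log2 -0.48, near the values of HAC1 and HAC12. HAC1 differed by log2 0.01 (SE 0.18, edgeR adjusted p = 0.961) on Day 6 under TMM, and was lower by total-count scaling (log2 -0.48, adjusted p = 0.00972). Guard cell markers summed to 52.3 to 62.3 CPM with yucasin on Day 6, against 7.21 to 14.1 CPM in the control and 8.53 to 15.7 CPM with MB-3. On Day 4 they were at 17.7 to 27.6 CPM with yucasin and 13.8 to 18.6 CPM in the control. On Day 4 epidermis markers summed to 7.88 to 10.8 CPM with yucasin and 2.23 to 3.02 CPM in the control, and mesophyll markers to 615 to 785 and 451 to 494 CPM. Epidermis markers on Day 6 summed to 5.44 to 16.4 CPM with yucasin and 0.744 to 1.35 CPM in the control, and phloem markers to 9.51 to 24.7 and 34.5 to 36.4 CPM. Of the 3 phloem markers, 2 had at most 3 counts in every library of both Day 6 groups, as had 2 of the 3 epidermis markers in the Day 6 control. The part of cell types or cell states in the members' differences was not tested. The yucasin and MB-3 comparisons share their control libraries.

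MB-3 and yucasin cultures were also compared with each other. On Day 6 HAG1 and HAG2 were higher with MB-3 than with yucasin (log2 0.55, SE 0.14, edgeR adjusted p = 0.00293, and log2 0.88, SE 0.13, adjusted p = 1.91e-05) and HAF1 was lower (log2 -0.79, SE 0.18, adjusted p = 0.00133), where 41.2% of loci were called. Total-count scaling called 4 members higher and 1 lower, with a median of log2 0.37 over all loci. The HAG1 call was lost without replicate 7 (0.0590) or 8 (0.0502). On Day 4 HAF1 (log2 -0.85, adjusted p = 0.00230) and HAC12 (log2 -0.36, adjusted p = 0.0401) were lower with MB-3, where 15.8% of loci were called. HAF1 was not called without replicate 4 (adjusted p = 0.0729), and HAC12 was not called without any 1 of replicates 4 to 6 (0.0749 to 0.356) or under total-count scaling (log2 -0.26). These comparisons share the treated libraries with those against the control.

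Without 2,4-D in the medium the edgeR fit under TMM without a replicate block called no member, although the HAG1 and HAG2 groups did not overlap. Other settings with all libraries called HAG1, HAG2, HAC5 or HAF1, as given below. HAG1 stood at 9.36, 8.02 and 10.5 CPM without 2,4-D against 19.3, 12.9 and 12.3 CPM, and HAG2 at 13.5, 14.4 and 11.3 against 18.9, 18.3 and 18.5 CPM. Neither pair of groups overlapped. The differences were log2 -0.68 (SE 0.26, edgeR adjusted p = 0.0811) and -0.50 (SE 0.19, adjusted p = 0.0724), and total-count scaling called both (-0.98, adjusted p = 0.0249, and -0.80, adjusted p = 0.0118).

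HAC1 stood at 75.1, 206 and 211 CPM without 2,4-D against 64.1, 109 and 106 CPM in the control. HAC5 stood at 44.7, 118 and 117 against 34.2, 58.1 and 53.2 CPM, and HAF1 at 96.4, 189 and 223 against 64.4, 118 and 109 CPM. Within each replicate number the culture without 2,4-D was the higher one for all 3 genes, but replicate 9 lay far below the others in both groups. The differences were log2 0.82 for HAC1 (SE 0.36, edgeR adjusted p = 0.114), 0.94 for HAC5 (SE 0.35, adjusted p = 0.0721) and 0.81 for HAF1 (SE 0.32, adjusted p = 0.0902).

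So edgeR under TMM without a replicate block called 0 of 9 members without 2,4-D, where 22.3% of loci were called. At unadjusted p under 0.05 there were 5 members, and DESeq2 called 1, HAC5 (log2 0.97, adjusted p = 0.0438). When same-numbered libraries were paired as a replicate block, HAC5 (log2 0.88, adjusted p = 0.0254) and HAF1 (log2 0.78, adjusted p = 0.0361) were called. Without replicate 9, HAC1, HAC5 and HAF1 were higher (log2 0.90, 1.01 and 0.80, adjusted p = 0.000236, 9.82e-05 and 0.000869) and HAG2 was lower (log2 -0.56, adjusted p = 0.0357). Guard cell markers summed to 26.2 to 49.7 CPM without 2,4-D and 11.3 to 30.7 CPM in the control, and phloem markers to 0.107 to 0.752 and 3.29 to 12.0 CPM. All 3 phloem markers had at most 3 counts in every library without 2,4-D, and 2 of them in the control. The part of these marker differences was not tested. HAG1 and HAG2 made up 10.4% ± 3.69 (SD, n = 3) of the summed per-length level without 2,4-D and 18.9% ± 4.32 (n = 3) in the control, and HAC1, HAC5 and HAF1 56.9% ± 11.1 and 42.0% ± 7.84.

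**Figure D5:**
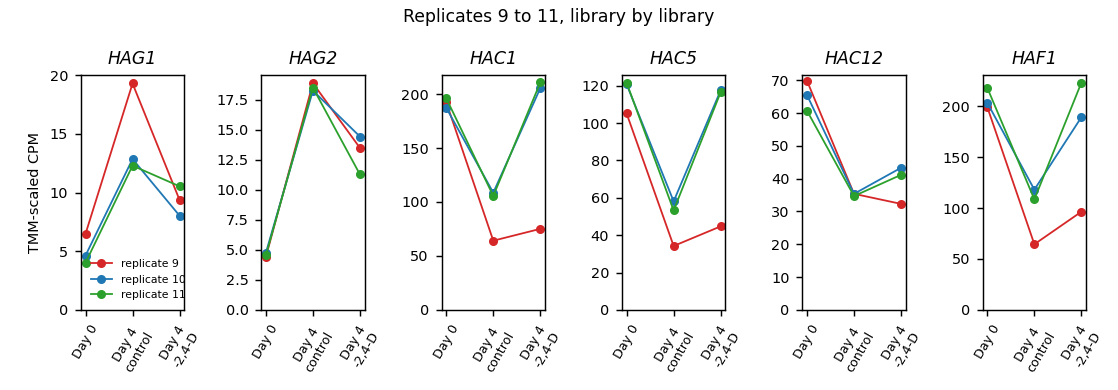
Levels of 6 members in replicates 9 to 11, in CPM scaled by TMM, with lines joining libraries of the same replicate number over Day 0, the Day 4 control and Day 4 without 2,4-D. Replicate 9 stays lowest in HAC1, HAC5 and HAF1 in both Day 4 groups, for example 64.1 against 109 and 106 CPM in HAC1.

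Across the 26 libraries of replicates 4 to 8, HAG1 and HAG2 went together (Pearson r = 0.96 of log2(CPM + 1)), as did HAC1 and HAC5 (0.98), while HAG1 and HAF1 ran opposite (-0.89). These are descriptions over libraries that share time points and scaling. Among 11245 loci with a mean of at least 10 CPM, those most like HAG1 were ABH1, which encodes a subunit of the nuclear cap-binding complex, SRF3, a receptor-like kinase gene, and AT1G78880 (r = 0.988, 0.988 and 0.987). Those most like HAF1 were SKIP (0.976), AT1G22930 (0.968) and NPX1 (0.967). HAG3 had less close neighbours, AT1G62422 (0.914), OASB, an O-acetylserine lyase gene (0.910), and AT2G34355 (0.907).

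The other CBP family loci, HAC2 and HAC4, are not members. HAC4 had 14 to 293 counts per library and was highest on average in leaf (15.8 CPM) and on Day 2 (15.1 CPM). It rose by log2 0.94 from Day 0 to Day 2 (edgeR adjusted p = 2.30e-06), and was lower on Day 6 than at Day 0 under TMM (log2 -0.49, adjusted p = 0.00496) but higher under total-count scaling (log2 0.63). With MB-3 on Day 14 it was lower than in the control by log2 0.82 (adjusted p = 0.0337). HAC2 had 2 to 12 counts in Day 0 libraries of replicates 4 to 8, 11 to 21 on Day 2 and 0 to 1 in the Day 6 control.

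Subunits of the complexes in which HAG1, HAG3, HAM1 and HAM2 work were taken from a list of 40 loci, of which 26 had names matched in the RefSeq annotation, HAC2 and HAC4 included. Of 12 SAGA subunits, 4 rose and 7 fell from Day 0 to the Day 6 control under TMM, from SGF29B (log2 2.13), a reader of methylated histone H3, to the chromatin remodeller CHR5 (-1.93), with TAF6B the smallest called (-0.34). Of all loci 86.2% were called in this comparison under TMM, 48% higher and 38.1% lower. Under total-count scaling 7 were higher and 2 lower, and TAF6B, TAF12 and ADA2B turned to higher values (0.77, 0.18 and 0.44). The median of all loci was log2 1.45 under that scaling. The 12 SAGA subunits tested thus did not change in 1 direction under either scaling. Several of them were TAF genes, and listed subunits without a matched name were not tested.

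Of 4 Elongator subunits, 3 rose under TMM, ELP6 the most (log2 1.25), and ELP4 fell (-0.63). Under TMM HAG3 (-0.77) thus changed in the direction of ELP4 and against the other 3. Under total-count scaling all 4 subunits were higher (ELP4 0.48), as was HAG3 (0.34), with a median of log2 1.45 over all loci. Of 7 NuA4 subunits 5 rose and 0 fell under TMM, from MRG2 (log2 1.86) to ING2 (0.42), against the TMM background given above. Under total-count scaling all 7 were higher, where 16757 of 19043 loci were called and their median was shifted as just given. With yucasin on Day 6, 3 Elongator subunits were lower, ELP2 the most (-0.89). Under TMM SAGA had only SGF29A called (0.38, which turned to -0.10 under total-count scaling), and NuA4 had 3 higher, MRG2 the most (0.86), and 2 lower, YAF9B (-0.94) and ARP4 (-0.34), where 58.9% of all loci were called. Under total-count scaling 0 SAGA subunits were higher and 9 lower, all 4 of Elongator were lower, and 0 of NuA4 were higher and 4 lower. The median of all loci in that fit was log2 -0.48, with 12890 of 19043 loci called.

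With MB-3, 1 of 24 partners was called on Day 4 (4.17%, against 7.19% of all loci), 1 on Day 6 (4.17%, against 27.4%) and 2 on Day 14 (8.33%, against 21.6%). These were the NuA4 subunit MRG1 on Day 4 (log2 -0.64, edgeR adjusted p = 0.0159), ELP2 on Day 6 (0.33, adjusted p = 0.0444), and TAF9 and MRG2 on Day 14 (0.55, adjusted p = 0.0494, and 1.00, adjusted p = 0.00374). ELP2 and TAF9 were not called under total-count scaling (0.21 and 0.50). That scaling called 2 SAGA subunits lower on Day 6 and 1 lower on Day 14. The medians of all loci there were log2 -0.13 and -0.06. Without 2,4-D, ADA2B, the SAGA subunit that binds HAG1, was higher (0.61, adjusted p = 0.0436) and ELP2 was lower (-0.77, adjusted p = 0.0405), where 22.3% of all loci were called. ADA2B was not called under total-count scaling (0.32, adjusted p = 0.225). That scaling called 2 NuA4 subunits lower, with a median of log2 -0.27 over all loci.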

How the data were processed

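RNA-seq libraries of intact leaves and protoplast cultures were made by the authors with the KAPA stranded mRNA kit and mapped to TAIR10 with Bowtie 0.12.9, per the labels. The authors deposited raw read counts per splice variant for each of 47 libraries. The counting tool, strand setting and read length are not given in the sources used here. The files of the 3 sets of replicate numbers list 36081, 33565 and 32648 variants. Of 28197 loci, 36 lack variant 1 and were represented by their lowest-numbered variant, and 27628 were found in the RefSeq table. No sample column was left unmapped.

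Each set was fitted separately in edgeR 4.0.16 (R 4.3.3) with TMM, filterByExpr and the quasi-likelihood test, with group as the term. Adjusted p-values are Benjamini-Hochberg over all loci tested. A value was called at an adjusted p under 0.05, and the study's rule (log2 above 2, p and adjusted p under 0.01) is given beside it. SE is the log2 difference divided by the root of F. There were 17 comparisons of 2 groups and 3 differences between comparisons. The procedure was tested on simulated data. Intervals and floors cover counting error only where they come from counts.

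Same-numbered libraries deviated together (every pair's correlation above 0.1) in yucasin and control on Day 4 (0.176 to 0.447), MB-3 and control on Days 4 (0.244 to 0.490) and 6 (0.278 to 0.422), without 2,4-D and control (0.297 to 0.575) and MB-3 and yucasin on Days 4 (0.276 to 0.494) and 6 (0.298 to 0.350). The labels do not say what a replicate number marks.

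All 10 members are named. Partners named are those called with the largest and smallest change of their complex, plus those whose direction turned with the scaling; 1 subunit is not reported here by name. The members, lists and rules were chosen with earlier results of these data known. Marker lists held mesophyll, epidermis, guard cell, phloem and xylem genes. Alternatives were total-count scaling, DESeq2 1.42.0, no filter, all variants summed, a replicate block and each replicate left out. Leaving out libraries with reads at silent loci was chosen after seeing the data.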

Additional observations from a re-analysis of the deposited data

Results flagged for a closer look

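HAM1 in Day 0 replicates 4 to 8 had 1 library apart from the rest. Replicate 4 stood at 25.8 CPM and the others between 19.9 and 20.9 CPM, and the gap took up 0.822 of the range. Of 18 groups checked in this way 1 stood out, and chance gives about 1 in 20. The effect of yucasin differed between days for HAG1, by log2 -0.60 (Day 6 minus Day 4), and for HAG2, by log2 -0.74, by the edgeR test of the difference itself. Causes were not tested.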

How the results depend on the processing

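Summing all variants changed no call among 180 member values (9 members in 20 comparisons), DESeq2 made 7 further calls, and dropping the filter lost 2 and added 1. Total-count scaling kept 128, lost 11, added 25 and turned 16, the construction of the scaling moving all loci. The turned values were log2 -0.62 for HAC1 in Day 0 against leaf. From Day 0 to the Day 14 control they were 0.18 for HAG3 and 0.27 for HAC1. To Day 2 they were 0.61 for HAG3, 0.59 for HAC1, 0.58 for HAC5, 0.25 for HAC12 and 0.23 for HAF1. To Day 4 they were 0.18 for HAG3 and 0.95 for HAM1, and to Day 6 0.34 for HAG3. With yucasin on Day 6 they were -0.48 for HAC1 and -0.45 for HAC12, and in replicates 9 to 11 from Day 0 to Day 4 0.44 for HAG3, 0.00628 for HAC1 and 0.16 for HAC12.

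Counts of members called that moved by over 1.5 times are given here. Total-count scaling gave 7 in Day 0 against leaf, 8 on Day 2 against Day 0, 3 on Day 6 against Day 4, 2 with yucasin on Day 4, 1 and 5 in MB-3 against yucasin on Days 4 and 6, 4 on Day 4 against Day 0 in replicates 9 to 11, 2 without 2,4-D and 5 in the yucasin difference between days. DESeq2 gave 2 with yucasin on Day 4 and 1 without 2,4-D, and no filter gave 1 in MB-3 against yucasin on Day 4.

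With the replicate block, 2 members were called without 2,4-D and 0 on Day 6 against Day 4 (HAG2 0.28, adjusted p = 0.152), where only 1 number is shared. The block changed no other call.

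Leaving out 1 replicate number at a time turned 0 of 693 values, lost 34 calls and added 15. Members called then ranged from 3 to 5 in Day 0 against leaf, 0 to 2 in Day 14 against leaf, 0 to 1 with MB-3 on Day 14, 4 to 6 on Day 2 and 8 to 9 on Day 6 against Day 0. They were 6 on Day 14 and 8 on Day 4 against Day 0 and 6 on Day 4 against Day 2 each time. They ranged from 0 to 2 on Day 6 against Day 4, 0 to 1 and 2 to 4 with yucasin on Days 4 and 6, 0 to 1 and 2 to 3 in MB-3 against yucasin on Days 4 and 6, 3 to 9 on Day 4 against Day 0 in replicates 9 to 11, 0 to 4 without 2,4-D and 1 to 2 in the yucasin difference. They were 0 with MB-3 on Days 4 and 6, in the MB-3 difference and in the difference between replicate sets. The causes were not tested. HAF2, at 3 counts or fewer in 30 of 44 protoplast libraries, was too low for a statement on change.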
